A study of Mus musculus with 6 samples.

Results

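Genes for the Wnt ligands, their receptors and the beta-catenin complex were followed in the cerebral cortex of FAD5x mice and of C57BL/6 Control mice. The set held every protein-coding gene in the deposited counts whose symbol is Wnt or Fzd with a number, 19 ligands and 10 Frizzled receptors, and 17 further genes chosen by name. These 46 members were all found among 47728 genes, and 41 of them passed the filter on low counts, as did 17074 genes in all. Total RNA was taken from flash frozen cortex, with 3 libraries from FAD5x mice and 3 from Control mice, of 17363946 to 24137936 counts each. As background, FAD5x is a transgenic mouse model of Alzheimer's disease whose transgenes are driven in neurons by the Thy1 promoter, and C57BL/6 is the strain named for Control. The labels give neither age, sex nor any other treatment, and do not say whether libraries came from separate animals. FAD5x replicates 1 and 2 have library names that differ only by a suffix. The p-values thus reflect the spread between libraries alone, and that spread may be technical.

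In the canonical Wnt pathway, a secreted Wnt protein binds a Frizzled receptor together with Lrp5 or Lrp6, and Dishevelled proteins then disable a destruction complex built on Apc and Axin. Without a Wnt signal that complex has beta-catenin (Ctnnb1) phosphorylated and degraded. With the signal, beta-catenin reaches the nucleus and switches on target genes with the TCF and LEF factors, Axin2 among them. In the adult brain the pathway is known for maintaining the blood-brain barrier and for roles at synapses.

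Some libraries stood apart. Control replicate 1 had 3 counts of Xist, the RNA of the inactive X chromosome, against 10346 to 22631 in the other 5 libraries. A list of 7 striatal neuron markers summed to 1350, 253 and 194 CPM in FAD5x replicates 1, 2 and 3, and to 151 to 206 CPM in Control libraries. CPM is the usual depth-scaled count of a gene, here over the library total times that library's normalisation factor. Vesicular glutamate transporter Slc17a7, a marker of cortical excitatory neurons, stood at 1047 to 1676 CPM in FAD5x libraries and at 1016 to 1505 CPM in Control libraries.

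Of the 41 members tested, 4 fell in FAD5x cortex and 0 rose at an adjusted p below 0.05. The fallen ones were Apc, a core protein of the destruction complex, the receptors Fzd10 and Fzd1, and the ligand Wnt4. Fold changes are log2 values of FAD5x over Control, each with its standard error (SE), tested by edgeR's quasi-likelihood test with Benjamini-Hochberg adjustment over all genes tested. Among all 17074 genes, 1.39% fell and 1.76% rose, whereas 9.76% of the members fell. The members were chosen with earlier results of these data known, so such shares are a description and no independent test. At an unadjusted p under 0.05, 13 members were lower and 4 higher, against 10.1% of all genes lower and 11.2% higher. By limma-voom 2 members fell and 0 rose, against 1.24% of all genes lower and 1.33% higher. By DESeq2 10 fell and 1, Sfrp1, rose, against 4.23% of all genes lower and 4.47% higher. The median log2 fold change of the 41 members was -0.13, against 0.02 over all genes tested, and 26 of the 41 were below 0, or 63.4%, against 48.5% of all genes. FAD5x libraries all lay below the Control libraries for 13 members, or 31.7%, against 13.2% of all genes, and all above them for 2 members, Fzd9 and Sfrp1, or 4.88%, against 14.1%. The count of 4 fallen members was 2 without FAD5x replicate 1, and 1 without Control replicate 2 or Control replicate 3. Of all genes tested, those fits called 103 of 17551, 42 of 17642 and 80 of 17719 lower, in that order, against 237 in the main fit. The count of fallen members was 0 with FAD5x replicate 1 and Control replicate 1 both left out, where 19 of 17225 genes were called lower. It was also 0 with a replicate block, a fit with the replicate number as a further term, where 36 of 17074 genes were called lower.

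**Figure D1:**
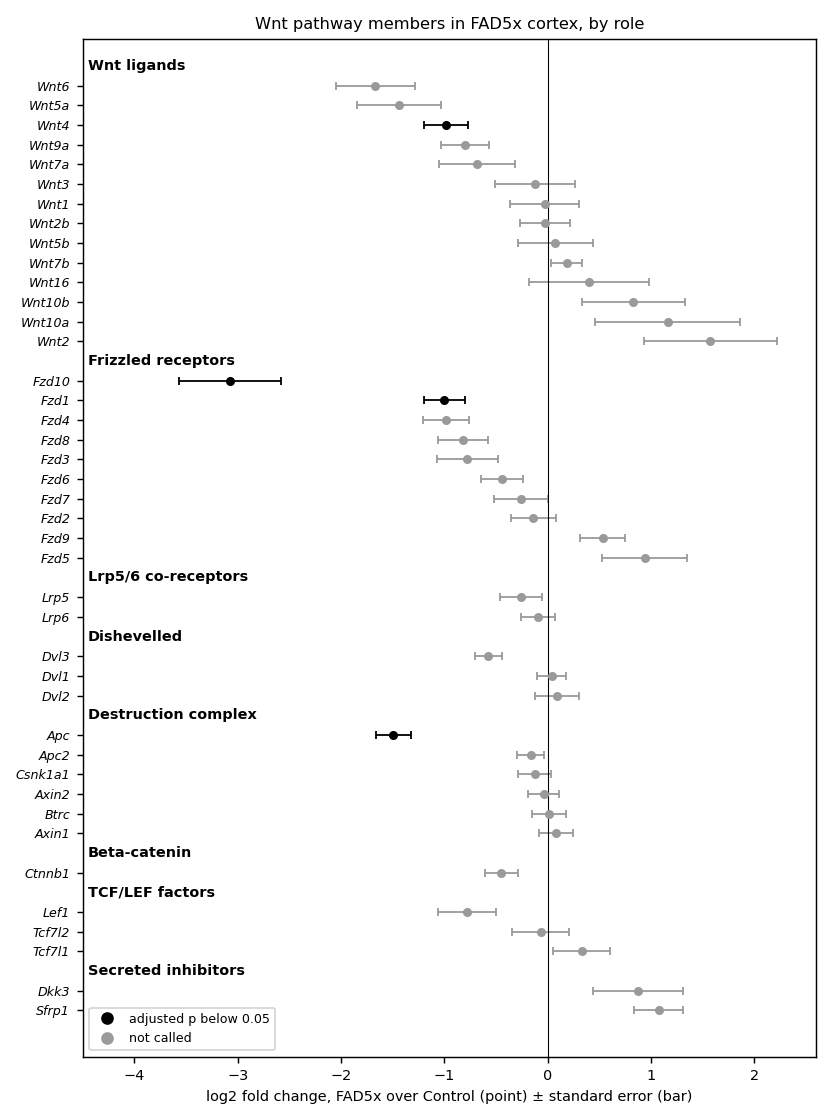
The plot of fold changes by role shows the log2 fold change of each tested member, FAD5x over Control, as a point with its standard error as a bar. Black points mark the 4 called members, and the largest fall is that of Fzd10 at -3.07, with Apc at -1.49.

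In the destruction complex, Apc (ENSMUSG00000005871) was 2.82-fold lower in FAD5x cortex, and none of its 5 partners passed the test (edgeR, 0 at an unadjusted p under 0.05, and 0 by limma-voom or DESeq2). Apc holds beta-catenin for phosphorylation and also binds microtubules. FAD5x libraries had 387, 301 and 402 CPM, against 1059, 1063 and 951 CPM in Control libraries, in the order of their replicate numbers throughout. The highest FAD5x library stood far below the lowest Control library, and the spread within either group was small beside the gap. The log2 fold change was -1.49 ± 0.17 SE (n = 3 per group, adjusted p = 0.00438). Leaving out each library in turn gave adjusted p-values between 0.00189 and 0.0354, and the call ended when FAD5x replicate 1 and Control replicate 1 were left out together (adjusted p = 0.144), a setting added once the data were known. The call also ended with the replicate block (adjusted p = 0.0553). Less RNA per cell and fewer cells of a type cannot be told apart in such tissue libraries.

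Apc2, a relative of Apc found mainly in neurons, had 165, 140 and 136 CPM in FAD5x libraries and 167, 162 and 166 CPM in Control libraries. Its log2 fold change was -0.16 ± 0.13 (adjusted p = 0.512), and the groups overlapped. Within each library Apc had 2.34, 2.15 and 2.96 times the counts of Apc2 in FAD5x, and 6.36, 6.57 and 5.73 times in Control. These ratios of raw counts need no scaling between libraries, and the FAD5x values all lay below the Control values. The other members of the complex had log2 fold changes between -0.13 and 0.08. Csnk1a1, a kinase that primes beta-catenin for degradation, averaged 289 ± 54.2 CPM in FAD5x and 315 ± 14.6 CPM in Control (SD, n = 3 each). Btrc, the ubiquitin ligase subunit that recognises phosphorylated beta-catenin, averaged 120.5 ± 23.3 CPM in FAD5x and 119.7 ± 11.1 CPM in Control. Axin1, the main scaffold of the complex, averaged 23.9 ± 1.56 CPM in FAD5x and 22.7 ± 4.41 CPM in Control.

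Axin2, a scaffold that is itself switched on by beta-catenin and so serves as a common readout of the pathway, had 21.3, 25.8 and 21.5 CPM in FAD5x libraries. It had 25.9, 23.9 and 20.7 CPM in Control libraries, so the groups overlapped almost fully. The log2 fold change was -0.04 ± 0.15 (adjusted p = 0.908), and its sign turned when FAD5x replicate 1, FAD5x replicate 3 or Control replicate 1 was left out.

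Beta-catenin itself (Ctnnb1), the member with the highest level per kilobase of exon in Control and in the mean over all 6 libraries, was lower in each FAD5x library without passing the test. It had 469, 358 and 408 CPM in FAD5x libraries and 512, 617 and 557 CPM in Control libraries. The groups did not overlap, and the log2 fold change was -0.45 ± 0.16 (unadjusted p = 0.0207, adjusted p = 0.156). Per count of Ctnnb1, Apc had 0.826, 0.841 and 0.987 counts in FAD5x libraries and 2.07, 1.72 and 1.71 in Control libraries. The difference in Apc was thus also present relative to the transcript of its substrate. Exons of Ctnnb1, and likewise of Lef1, Fzd5 and Dvl2, overlap in part a gene on the opposite strand, and reads of both cannot be told apart where strand was not used.

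**Figure D2:**
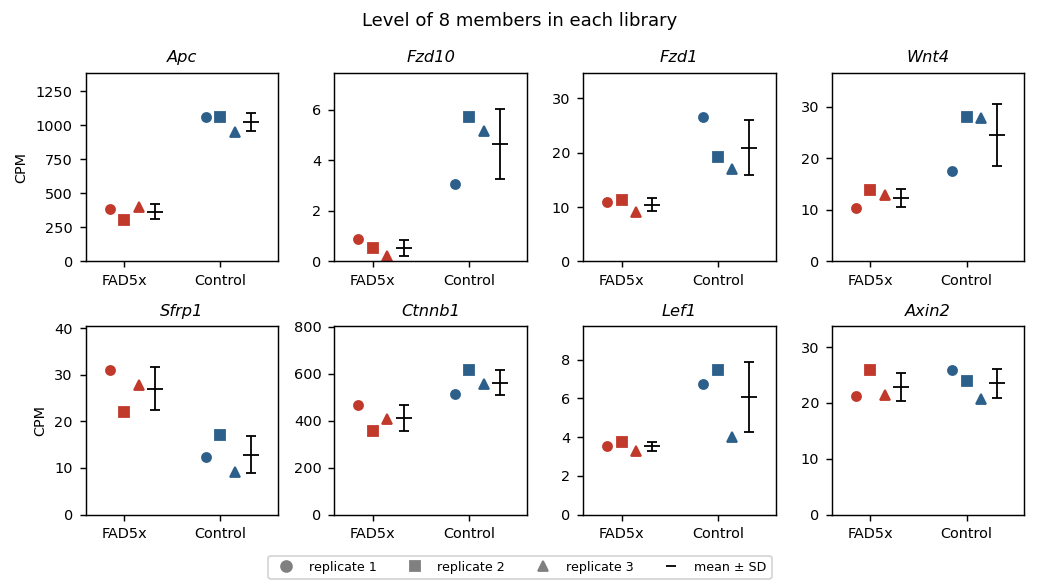
The plot of levels by library shows CPM of 8 members in each library, 1 panel per gene with its own axis from 0, with the mean and SD of each group in black. Apc, Fzd10, Fzd1 and Wnt4 have FAD5x libraries below all Control libraries, Sfrp1 has them above, and those of Axin2 overlap.

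Frizzled receptors are membrane proteins that bind Wnt ligands through a cysteine-rich domain. Of the 10 tested, 2 fell and 0 rose (edgeR, with 5 lower and 2 higher at an unadjusted p under 0.05), 8 had a log2 fold change below 0, and the median was -0.61. Over all genes tested, 1.39% fell and 1.76% rose, 10.1% were lower and 11.2% higher at that unadjusted p, and 48.5% were below 0. Fzd10 (ENSMUSG00000081683) was 8.42-fold lower and had few reads, with 21, 11 and 4 counts in FAD5x replicates 1, 2 and 3 and 56, 102 and 92 counts in Control replicates 1, 2 and 3. These are 0.866, 0.533 and 0.209 CPM in FAD5x libraries and 3.08, 5.73 and 5.14 CPM in Control libraries, with no overlap. The log2 fold change was -3.07 ± 0.49 (adjusted p = 0.0191), and the call ended without Control replicate 2 (adjusted p = 0.0966) or Control replicate 3 (0.0646). It also ended with the replicate block (0.106) and with FAD5x replicate 1 and Control replicate 1 both left out (0.0963).

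Fzd1 (ENSMUSG00000044674) had a log2 fold change of -1.001, with 10.96, 11.2 and 9.14 CPM in FAD5x libraries and 26.6, 19.2 and 17.0 CPM in Control libraries. Control replicate 1 was the highest library, and all Control libraries lay above all FAD5x libraries. The fold change had an SE of 0.20 and passed the test (adjusted p = 0.0369). With single libraries left out the call held only without FAD5x replicate 2 (0.0307). It ended without Control replicate 1 (0.134), Control replicate 2 (0.109), Control replicate 3 (0.0575), FAD5x replicate 1 (0.0861) or FAD5x replicate 3 (0.0699), and by limma-voom (0.0509). It also ended with the replicate block (0.106) and with FAD5x replicate 1 and Control replicate 1 both left out (0.257). The call held by DESeq2 (0.000815) and with no filter on low counts (0.00248).

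Fzd2, the Frizzled gene with the highest level per kilobase in FAD5x and in the mean over all libraries, with Fzd1 above it in Control, had 13.0, 17.4 and 11.8 CPM in FAD5x libraries and 15.5, 18.7 and 12.2 CPM in Control libraries. Its groups overlapped, with a log2 fold change of -0.14 ± 0.21 (adjusted p = 0.758). The remaining Frizzled genes, described after their values were seen, included 4 without overlap. Of all genes tested, 13.2% had all FAD5x libraries below the Control libraries and 14.1% had them all above. Fzd4, a receptor for the vascular ligand Norrin that acts in endothelial cells, had 9.81, 8.53 and 6.69 CPM in FAD5x libraries and 20.6, 13.3 and 15.5 CPM in Control libraries. Its log2 fold change of -0.98 ± 0.22 was close to that of Fzd1 and did not pass the test (adjusted p = 0.0545). Fzd4 was called lower by DESeq2 (0.00345) and with no filter on low counts (0.00671). Fzd3, known for guiding axon tracts in mouse, averaged 14.1 ± 5.94 CPM in FAD5x and 24.3 ± 3.15 CPM in Control (SD, n = 3 each, log2 fold change -0.78, adjusted p = 0.187). Fzd8 averaged 3.10 ± 0.136 CPM in FAD5x and 5.48 ± 0.892 CPM in Control (-0.82, adjusted p = 0.103), and DESeq2 called it lower (0.0410). Both had all FAD5x libraries below the Control libraries.

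Among the Frizzled genes, 2 pointed the other way. Fzd9 had 8.62, 7.22 and 7.37 CPM in FAD5x libraries and 4.84, 6.52 and 4.70 CPM in Control libraries, without overlap (log2 fold change 0.53 ± 0.22, adjusted p = 0.212). Fzd5 had 7.50, 2.37 and 4.60 CPM in FAD5x libraries and 2.75, 2.08 and 2.74 CPM in Control libraries, with FAD5x replicate 2 inside the Control range (log2 fold change 0.94 ± 0.41, adjusted p = 0.235). FAD5x replicate 1, the highest for Fzd5, was also the library with the highest striatal marker sum, and the part of that sum in the Fzd5 value was not tested. With FAD5x replicate 2 left out, Fzd5 passed the test (adjusted p = 0.0466), and with any other single library left out it did not (adjusted p between 0.285 and 0.557). Fzd6 and Fzd7 overlapped between groups, with log2 fold changes of -0.44 and -0.26. Summed over the 10 receptors, without scaling by exon length, the level was 93.4, 79.1 and 71.3 CPM in FAD5x libraries and 131, 119 and 105 CPM in Control libraries.

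The Wnt ligands are lipid-modified secreted proteins, and 14 of the 19 passed the filter. Of these 1 fell and 0 rose (edgeR, with 4 lower and 1 higher at an unadjusted p under 0.05), and the median was -0.03. Shares over all genes tested were 1.39% fallen and 1.76% risen, with 10.1% lower and 11.2% higher at that unadjusted p. Wnt4 (ENSMUSG00000036856), a ligand known in mouse for kidney and reproductive tract development, had 10.4, 13.8 and 12.9 CPM in FAD5x libraries and 17.6, 28.1 and 27.9 CPM in Control libraries. The groups did not overlap, and Control replicate 1 was the lowest of its group. The log2 fold change was -0.99 ± 0.21 (adjusted p = 0.0460). The call ended without FAD5x replicate 1 (0.114), FAD5x replicate 3 (0.0699), Control replicate 2 (0.170) or Control replicate 3 (0.148), and under limma-voom (0.0643), upper-quartile scaling (0.0519) or a filter at a mean of 1 CPM (0.0507). It also ended with the replicate block (0.0917) and with FAD5x replicate 1 and Control replicate 1 both left out (0.135). The call held by DESeq2 (0.00178) and with no filter on low counts (0.00239).

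Wnt6 had 1.24, 2.33 and 2.77 CPM in FAD5x libraries and 8.92, 6.80 and 4.30 CPM in Control libraries. It did not overlap between the groups, and its log2 fold change of -1.67 ± 0.38 did not pass the test (adjusted p = 0.0562). Wnt6 was called lower by DESeq2 (0.00137) and with no filter on low counts (0.00322). Wnt5a, the best known ligand of beta-catenin-independent signalling, and Wnt9a were described after their values were seen. Wnt5a had 7.05, 7.51 and 15.3 CPM in FAD5x libraries and 40.6, 23.4 and 16.9 CPM in Control libraries, so that FAD5x replicate 3 nearly met Control replicate 3. The log2 fold change was -1.44 ± 0.40 (adjusted p = 0.103), and it passed the test without FAD5x replicate 3 (adjusted p = 0.0340). By DESeq2 Wnt5a was called lower (0.00418). Wnt9a averaged 10.5 ± 1.89 CPM in FAD5x and 18.2 ± 5.32 CPM in Control (SD, n = 3 each, log2 fold change -0.80, adjusted p = 0.105), again without overlap. It was called lower by DESeq2 (0.0349) and with no filter on low counts (0.0319).

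Wnt7a and Wnt7b are the ligands by which neural cells are known to maintain brain blood vessels in mouse. Wnt7b had the highest level per kilobase among the ligands, with 43.6, 40.2 and 45.7 CPM in FAD5x libraries and 30.9, 43.8 and 39.1 CPM in Control libraries. Its groups overlapped (log2 fold change 0.19 ± 0.15, adjusted p = 0.526). Wnt7a had 17.6, 7.75 and 14.5 CPM in FAD5x libraries and 30.8, 19.9 and 13.4 CPM in Control libraries, again with overlap (-0.68 ± 0.37, adjusted p = 0.342). Wnt7b made up 38.7%, 29.1% and 35.7% of the summed ligand CPM in FAD5x libraries and 18.8%, 27.3% and 26.3% in Control libraries. That sum was 113, 138 and 128 CPM in FAD5x libraries and 164, 160 and 149 CPM in Control libraries. The sum and the shares are not scaled by exon length, so longer genes weigh more in them.

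Single FAD5x libraries stood out for several ligands. Wnt10a had 4.37, 33.7 and 9.20 CPM in FAD5x replicates 1, 2 and 3, against 5.89, 6.35 and 8.89 CPM in Control libraries (log2 fold change 1.16 ± 0.70, adjusted p = 0.403). FAD5x replicate 1 was its lowest library and FAD5x replicate 2 by far its highest. Wnt2 had 5.07, 4.55 and 1.15 CPM in FAD5x libraries and 0.771, 0.674 and 2.18 CPM in Control libraries, with FAD5x replicate 3 inside the Control range (1.57 ± 0.64, adjusted p = 0.215). Wnt10b was highest in FAD5x replicate 3 at 7.001 CPM, and the other 5 libraries had 1.45 to 3.49 CPM. These 3 genes were described after their values were seen.

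The other ligands tested, Wnt1, Wnt2b, Wnt3, Wnt5b and Wnt16, overlapped between the groups, with log2 fold changes between -0.13 and 0.40. The 5 ligands that did not pass the filter had at most 20 counts in any library. Wnt9b had 0, 15 and 20 counts in FAD5x libraries and 8, 10 and 1 in Control libraries. Wnt11 had 1, 4 and 7 counts in FAD5x libraries and 7, 14 and 5 in Control libraries. Wnt8b had 11 counts in FAD5x replicate 1 and at most 1 in any other library, Wnt8a had at most 3, and Wnt3a had 2 counts in Control replicate 2 and 0 elsewhere. These ligands were not tested in the main fit, and none of them was called in the fit with no filter on low counts. Their low counts limit what could be detected.

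**Figure D3:**
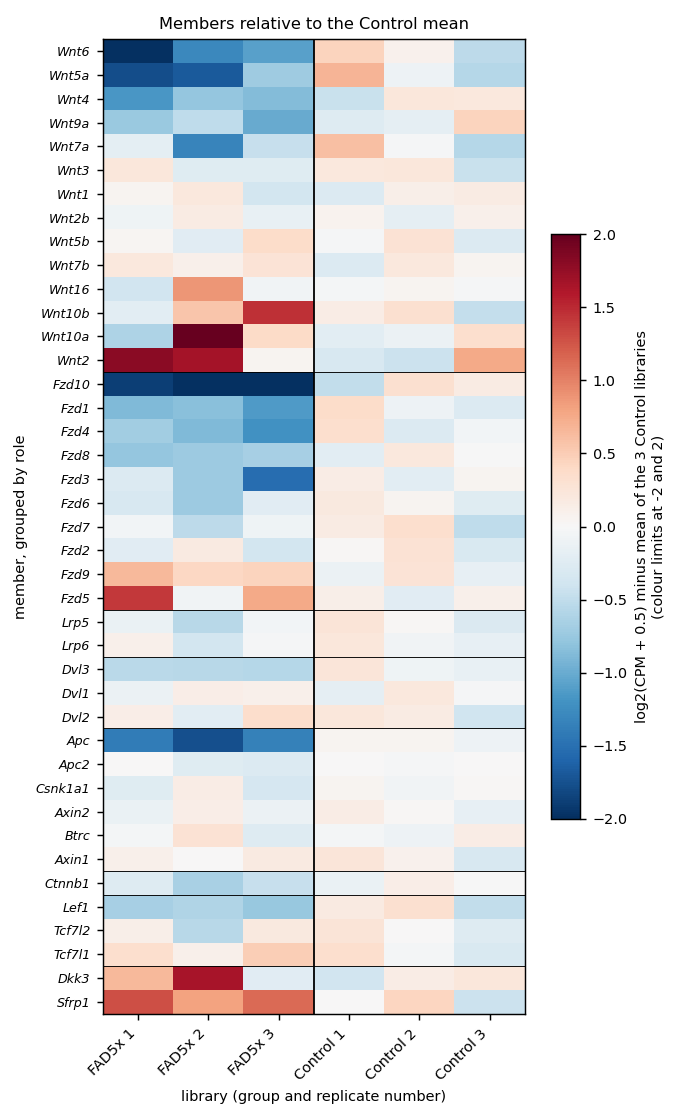
The map of relative levels shows log2(CPM + 0.5) of each tested member in each library minus the mean of the Control libraries, with blue below and red above that mean, members in rows by role and libraries in columns. Fzd10, Apc and Wnt4 are blue in all FAD5x libraries, whereas Wnt10a is deep red in FAD5x replicate 2 alone.

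The promoters of the fallen ligand and receptors were read beside that of Axin2, to show what lies upstream of members that were called and of a readout that was not. They come from the RefSeq promoter table of build GRCm38.p6, which held 30 of the 46 members, Apc not among them. Each window is the 250 bases before the annotated start site. The windows are chr5:128600856-128601105 on the plus strand for Fzd10, chr5:4758217-4758466 on the minus strand for Fzd1, chr4:137277385-137277634 on the plus strand for Wnt4 and chr11:108920099-108920348 on the plus strand for Axin2. Capitals mark the GC box GGGCGG on either strand, a motif bound by Sp factors that was chosen after the data were known.
Fzd10: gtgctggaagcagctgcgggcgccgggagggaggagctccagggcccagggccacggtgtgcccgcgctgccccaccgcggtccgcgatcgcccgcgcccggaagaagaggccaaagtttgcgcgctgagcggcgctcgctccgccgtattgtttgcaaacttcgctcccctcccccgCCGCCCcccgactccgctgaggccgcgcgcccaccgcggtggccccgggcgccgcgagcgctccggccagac
Fzd1: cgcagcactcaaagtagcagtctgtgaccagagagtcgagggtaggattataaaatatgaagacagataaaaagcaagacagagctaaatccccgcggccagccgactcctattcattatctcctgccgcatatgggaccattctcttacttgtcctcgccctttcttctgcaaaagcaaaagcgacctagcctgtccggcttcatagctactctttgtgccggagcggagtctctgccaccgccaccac
Wnt4: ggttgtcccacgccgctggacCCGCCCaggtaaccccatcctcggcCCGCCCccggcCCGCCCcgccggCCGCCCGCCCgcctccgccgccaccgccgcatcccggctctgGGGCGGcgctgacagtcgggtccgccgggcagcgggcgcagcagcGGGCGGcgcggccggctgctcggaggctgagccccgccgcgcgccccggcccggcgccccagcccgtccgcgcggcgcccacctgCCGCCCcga
Axin2: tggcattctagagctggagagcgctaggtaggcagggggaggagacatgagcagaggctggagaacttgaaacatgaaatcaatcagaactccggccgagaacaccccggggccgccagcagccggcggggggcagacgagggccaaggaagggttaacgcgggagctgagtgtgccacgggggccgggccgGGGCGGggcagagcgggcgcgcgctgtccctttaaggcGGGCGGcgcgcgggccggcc
The Fzd1 window held 0 GC boxes and 51.2% G or C, Fzd10 held 1 box and 76.4%, Wnt4 held 8 boxes, 2 of them overlapping, and 85.2%, and Axin2 held 2 boxes and 69.2%. At least 1 GC box was found in 73.2% of the 41 windows of members, against 32.7% of all 32851 windows, and the median G and C content was 69.2% in windows of members and 52.4% in all windows. The TCF and LEF core motif CTTTGAT, searched on both strands and able to share no more than an end letter with a GC box, was in none of these 4 windows. It was found in 2 of the 41 member windows, those of Wnt5b and Wnt11, or 4.88%, against 3.21% of all windows. Some members, such as Apc2, Lef1 and Ctnnb1, have several of these windows. Windows of the same gene can overlap, so a GC box can be counted more than once.

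Upstream of the destruction complex, co-receptors and Dishevelled genes overlapped between the groups except for Dvl3. Lrp6 had 66.6, 47.9 and 60.6 CPM in FAD5x libraries and 72.5, 59.0 and 55.2 CPM in Control libraries (log2 fold change -0.09 ± 0.16, adjusted p = 0.788). Lrp5 had 14.1, 10.5 and 14.99 CPM in FAD5x libraries and 18.8, 16.0 and 12.6 CPM in Control libraries (-0.26 ± 0.20, adjusted p = 0.516). Both co-receptors were lowest in FAD5x replicate 2. Dvl1, the Dishevelled gene with the highest level, had 88.1, 105 and 103 CPM in FAD5x libraries and 84.0, 110.2 and 94.1 CPM in Control libraries (0.04 ± 0.14, adjusted p = 0.913). Dvl2 had 22.0, 17.3 and 25.8 CPM in FAD5x libraries and 23.5, 22.6 and 15.1 CPM in Control libraries (0.09 ± 0.21, adjusted p = 0.854). Neither differed beyond the spread within the groups.

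Dvl3, by contrast, had 40.3, 40.1 and 39.6 CPM in FAD5x libraries and 69.7, 55.7 and 53.1 CPM in Control libraries. All FAD5x libraries lay below the Control libraries and close to each other, and the log2 fold change of -0.57 ± 0.13 did not pass the test (adjusted p = 0.0580). Dvl3 was called lower by DESeq2 (0.0109) and with no filter on low counts (0.0315).

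Among the nuclear factors, Lef1, both a partner of beta-catenin and one of its targets, had 3.55, 3.73 and 3.29 CPM in FAD5x libraries and 6.72, 7.47 and 4.03 CPM in Control libraries. The groups did not overlap, although Control replicate 3 came close to the FAD5x libraries (log2 fold change -0.78 ± 0.28, adjusted p = 0.160). Tcf7l1, mainly a repressor, had 4.74, 3.92 and 5.33 CPM in FAD5x libraries and 4.73, 3.54 and 2.85 CPM in Control libraries, with overlap (0.33 ± 0.28, adjusted p = 0.541). Tcf7l2, which is high in thalamic neurons of the adult mouse, averaged 6.31 ± 1.78 CPM in FAD5x and 6.60 ± 1.253 CPM in Control (SD, n = 3 each, -0.07, adjusted p = 0.919). Thalamic neuron markers summed to 103 to 244 CPM in FAD5x libraries and to 245 to 457 CPM in Control libraries, and their part in the TCF values was not tested.

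Both secreted members were higher in FAD5x on average, and neither passed the test. Sfrp1, a decoy that binds Wnt ligands outside the cell, had 31.0, 22.0 and 27.8 CPM in FAD5x libraries and 12.4, 17.0 and 9.06 CPM in Control libraries. All FAD5x libraries lay above all Control libraries, with a log2 fold change of 1.07 ± 0.24 (adjusted p = 0.0520), and it was called higher by DESeq2 (0.00178), with no filter on low counts (0.00273) and without FAD5x replicate 2 (0.0245). Dkk3, a divergent member of the Dickkopf family that is abundant in cortical neurons, had 269.9, 541 and 146 CPM in FAD5x libraries and 132, 190 and 202 CPM in Control libraries. FAD5x replicate 2 was far above the others and FAD5x replicate 3 lay inside the Control range (0.87 ± 0.44, adjusted p = 0.304).

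Levels can be compared between genes only per kilobase of exon. On that scale Ctnnb1 averaged 79.3 CPM per kilobase in FAD5x and 108 in Control, Dkk3 94.98 in FAD5x and 51.9 in Control, Apc 22.6 in FAD5x and 63.6 in Control, and Csnk1a1 27.5 in FAD5x and 30.0 in Control. In Control, Apc therefore stood above Csnk1a1 in level and in FAD5x below it. The ligands and receptors were lower, and the highest of them was Wnt7b at 8.81 CPM per kilobase in FAD5x and 7.74 in Control.

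**Figure D4:**
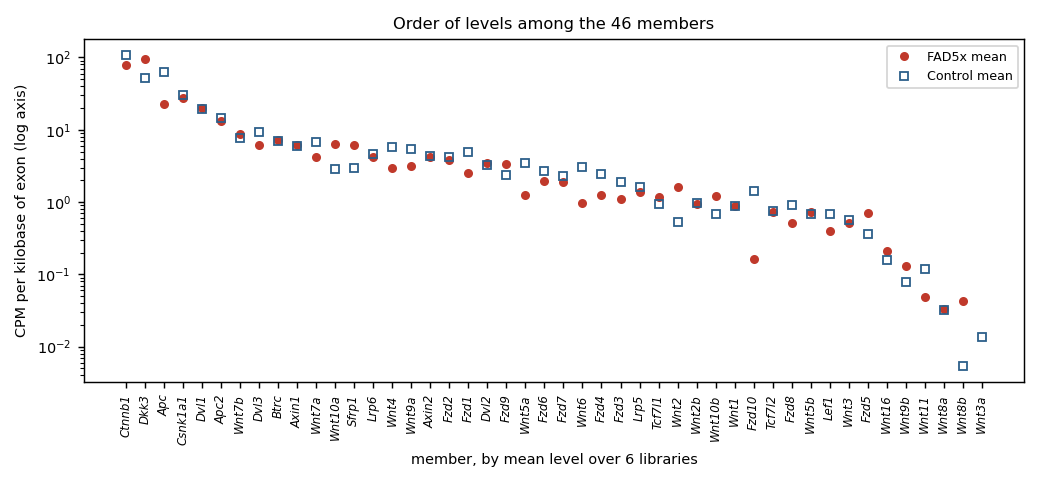
The plot of level order shows the mean CPM per kilobase of exon of all 46 members on a log axis, FAD5x as red circles and Control as blue squares. The intracellular members Ctnnb1, Apc, Csnk1a1 and Dvl1 and the secreted Dkk3 lead, and the FAD5x circle of Wnt3a is not drawn because its FAD5x libraries had 0 counts.

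The wider pathway was described by 85 other measured genes, in lists of secretion, R-spondin, receptor, antagonist, kinase, nuclear partner and target genes, of which 79 were tested. Of these 3 fell, or 3.80%, and 0 rose (edgeR, with 3 higher and 21 lower at an unadjusted p under 0.05). Below 0 were 55, or 69.6%, and the median was -0.22. Among all genes tested 1.39% fell and 1.76% rose, 48.5% were below 0, and 10.1% were lower and 11.2% higher at that unadjusted p. By limma-voom 3 fell and 0 rose, and by DESeq2 12 fell and 1 rose. Of all genes, limma-voom called 1.24% lower and 1.33% higher, and DESeq2 4.23% lower and 4.47% higher. Hdac1, a histone deacetylase of co-repressor complexes, had 15.5, 14.5 and 16.6 CPM in FAD5x libraries and 28.0, 32.4 and 29.0 CPM in Control libraries (log2 fold change -0.94 ± 0.13, adjusted p = 0.0121). Apcdd1, a membrane protein that restrains Wnt signalling and is itself a target of it, had 36.0, 29.7 and 29.2 CPM in FAD5x libraries and 91.2, 64.4 and 50.9 CPM in Control libraries (-1.12 ± 0.21, adjusted p = 0.0314). Tle3, a Groucho co-repressor of TCF factors, had 46.2, 54.7 and 61.9 CPM in FAD5x libraries and 103, 86.0 and 81.4 CPM in Control libraries (-0.73 ± 0.15, adjusted p = 0.0409). All 3 genes had FAD5x libraries below the Control libraries. Leaving out FAD5x replicate 1 left 1 fallen gene and leaving out FAD5x replicate 3 gave 6, whereas 0 were called without Control replicate 1 or 2 and 1 without Control replicate 3. Of all genes tested, 237 were called lower in the main fit, 103 without FAD5x replicate 1 and 314 without FAD5x replicate 3. Without Control replicate 1, 2 or 3 they were 56, 42 and 80.

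By list, 2 of 17 nuclear partners fell (Hdac1 and Tle3), as did 1 of 11 other antagonists (Apcdd1), a list of mostly secreted proteins that also holds membrane proteins such as Apcdd1 and the Kremen receptors. None of 19 kinases and partners of the destruction complex was called (edgeR, with 7 lower and 0 higher at an unadjusted p under 0.05), nor were any of 15 other receptors and polarity proteins (4 lower and 0 higher), 8 R-spondin and receptor turnover genes (3 lower and 1 higher) or 5 secretion genes (1 lower and 0 higher). Of 13 transcriptional targets of beta-catenin, a list that holds the members Axin2 and Lef1, 1 fell (Apcdd1) and 0 rose, with a median of -0.45. At an unadjusted p under 0.05, 4 of these targets were lower and 1 higher. For all genes tested, 1.39% fell and 1.76% rose, and 10.1% were lower and 11.2% higher at that unadjusted p.

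**Figure D5:**
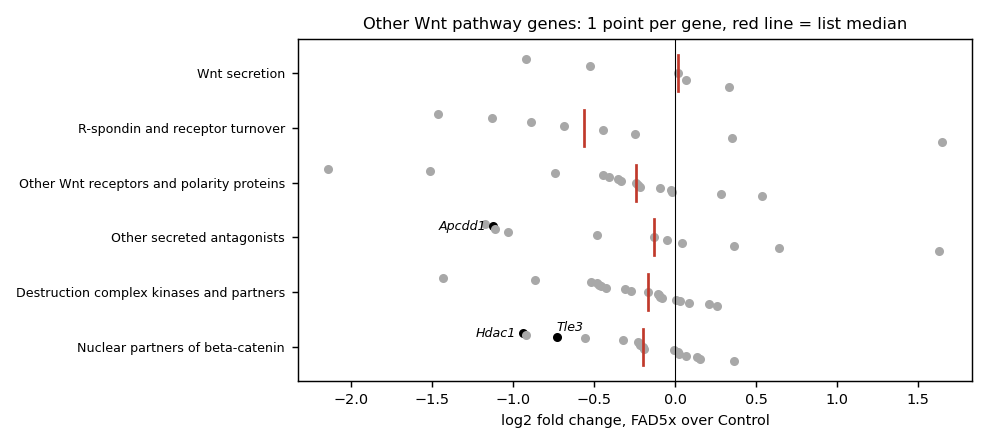
The plot of other pathway genes shows the log2 fold change, FAD5x over Control, of each tested gene outside the members as a point in its list, without the genes held by the target list alone, with called genes in black and the list median as a red line. The called genes Hdac1, Tle3 and Apcdd1 lie at -0.94, -0.73 and -1.12.

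Marker lists of vessel, meningeal, glial and neuronal cells are given beside these results, and their part in them was not tested. Among all genes tested 1.39% fell, 1.76% rose and 48.5% were below 0. At an unadjusted p under 0.05 (edgeR), 10.1% of all genes were lower and 11.2% higher. At that p, 6 of 9 meningeal fibroblast and 5 of 10 endothelial markers were lower and 0 higher. Of pericyte and smooth muscle markers 3 of 8 were lower, and of immature neuron markers 5 of 7, with 0 higher. Higher were 4 of 9 oligodendrocyte and 6 of 8 microglia markers, with 0 lower. Of 9 markers of meningeal fibroblasts, all were below 0 with a median log2 fold change of -1.60, 1 fell, Col3a1, and none was at 0 counts, and the list summed to 324 to 1034 CPM in FAD5x libraries and 456 to 1168 CPM in Control libraries. Of 10 endothelial markers 7 were below 0 with a median of -0.53 and 1 fell, and the sums were 205 to 285 CPM in FAD5x libraries and 258 to 339 CPM in Control libraries. Of 8 pericyte and smooth muscle markers 7 were below 0 with a median of -0.50, and the sums were 177 to 234 CPM in FAD5x libraries and 234 to 309 CPM in Control libraries. Of 7 immature neuron markers, a list that holds Nrep, all were below 0 with a median of -1.88 and 2 fell, with sums of 521 to 681 CPM in FAD5x libraries and 909 to 1043 CPM in Control libraries. Markers of excitatory neurons summed to 3384 to 6703 CPM in FAD5x libraries and 3867 to 6152 CPM in Control libraries, with no marker called among the 8 (edgeR, 0 at an unadjusted p under 0.05). Of 9 oligodendrocyte markers all were above 0 with a median of 0.53 and 3 rose, with sums of 3957 to 7671 CPM in FAD5x libraries and 2821 to 4161 CPM in Control libraries. Of 8 microglia markers all were above 0 with a median of 0.81 and 1 rose, with sums of 366 to 836 CPM in FAD5x libraries and 248 to 380 CPM in Control libraries. Of 8 astrocyte markers 6 were below 0, with a median of -0.23 and a range of -0.41 to 2.41, and 0 were called. Of 8 oligodendrocyte precursor markers 5 were below 0 with a median of -0.15, and 1 fell. Of 8 interneuron markers 6 were below 0, and of 5 tested choroid plexus markers 2 were. In the interneuron and choroid plexus lists 0 were called. At an unadjusted p under 0.05 (edgeR), 3 oligodendrocyte precursor markers were lower and 1 higher. Of astrocyte markers 0 were lower and 1 higher, of interneuron markers 1 was lower and 0 higher, and of choroid plexus markers 0 were either.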

How the data were processed

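The authors deposited raw counts per gene for 6 cortex libraries, keyed by Ensembl identifier. The submitters' processing notes name build GRCm39, the trimmer cutadapt, the aligner STAR 2.7.11b, the counter featureCounts, limma, and edgeR in version 3.38.4. Strandedness and the handling of reads that map to several places are not given in the sources used here. Of 47729 lines, 1 was dropped because a count was not numeric.

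Symbols and exon lengths came from GENCODE M21, an annotation of the older build GRCm38. It knew 47223 of the identifiers, and 505 had no entry. Genes were filtered with filterByExpr, scaled by TMM and tested two-sided with edgeR 4.0.16 in R 4.3.3 (robust quasi-likelihood, intercept and genotype). The test was run on simulated counts drawn independently for each library, which cannot show how it handles related or outlying libraries. Alternatives used limma 3.58.1, DESeq2 1.42.0, other scalings and filters, a replicate block and libraries left out. The standard error is the absolute log2 fold change divided by the square root of the F statistic.

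The members and lists were chosen with earlier results of these data known. By rule, every library is given for the called members, the 2 with the smallest p and the 1 with the highest level per kilobase in each role, and Axin2 and Lef1. Other members, some also given by library (Fzd4, Fzd5, Fzd9, Wnt2, Wnt5a, Wnt7a and Wnt10a), were picked with their values known. Among listed genes, Tle5 alone had no match.

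Exons of Dvl2, Fzd5, Ctnnb1 and Lef1 overlap a gene on the other strand over 18.3%, 17.8%, 14.6% and 13.7% of their bases, and their counts are uncertain where strand was not used. Aligned with blastn 2.17.0 at 95% identity over 200 bases, no member had a near copy elsewhere among annotated transcripts.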

Additional observations from a re-analysis of the deposited data

How the results depend on the processing

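With each alternative run, the median log2 fold change of the members stayed below 0. The number of members called lower, 4 as reported, was 2 by limma-voom, 10 by DESeq2, 8 with no filter on low counts, 7 at an adjusted p below 0.1 and 0 with FAD5x replicate 1 and Control replicate 1 left out jointly, a setting added once the data were known. Leaving out 1 library gave 1 to 4. The number called higher, 0 as reported, was 1 by DESeq2, with no filter and at an adjusted p below 0.1, and 0 to 2 with 1 library left out. Other pathway genes called lower, 3 as reported, were 12 by DESeq2, 8 with no filter, 7 at an adjusted p below 0.1, 0 without those 2 libraries together and 0 to 6 with 1 library left out, and those called higher were 1 by DESeq2, with no filter and at an adjusted p below 0.1. No count over all genes was taken at an adjusted p below 0.1. Over all genes, 537 were called as reported, 1485 by DESeq2, 1063 with no filter, 72 with a replicate block, 34 without those 2 libraries and 81 to 989 with 1 library left out. Called lower were 237 of 17074 genes as reported, 211 by limma-voom, 722 by DESeq2 and 489 of 30274 with no filter. Without those 2 libraries 19 genes were lower, and with 1 library left out 42 to 385. Called higher were 300 as reported, 763 by DESeq2, 574 with no filter and 39 to 604 with 1 library left out. The cause of these changes was not tested.

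Same-numbered libraries had correlations of -0.04, -0.09 and -0.31 in their deviations from the group means, and differently numbered ones -0.21 to 0.30. Deviations from a mean of 3 libraries constrain each other, so these values cannot decide whether the replicate numbers pair the libraries. With a replicate block 0 members and 0 other pathway genes were called lower, and Apc had an adjusted p of 0.0553.

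Of 304 alternative values of the 19 members given by rule, 23 lost a call, 10 gained one, 260 did neither and 11 changed sign. With 1 library left out, the log2 fold change of Fzd2 ran from -0.312 to 0.019, of Lrp6 from -0.200 to 0.038, of Dvl1 from -0.049 to 0.145, of Dvl2 from -0.084 to 0.236 and of Axin2 from -0.128 to 0.037. Axin2 was at 0.091 with FAD5x replicate 1 and Control replicate 1 left out. Depth limits Fzd10 and the 5 ligands below the filter.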

Other observations

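Apc lies on chromosome 18, and its nearest tested protein-coding neighbours were looked up in RefSeq order after its values were seen. Of the 5 on either side, Nrep, a gene of growing neurons that is also on the immature neuron list and lies 2 places before Apc, fell (log2 fold change -1.88 ± 0.19, edgeR adjusted p = 0.00215), and the other 9 were not called. Epb41l4a, between Nrep and Apc, was at -1.17 ± 0.61 (adjusted p = 0.324), and Srp19 and Reep5, the next genes after Apc, had 0.07 ± 0.17 and 0.34 ± 0.17 (adjusted p = 0.860 and 0.280). Around Wnt4 on chromosome 4, C1qa, a chain of the complement initiator that lies 3 places before it, rose (2.24 ± 0.26, adjusted p = 0.00726), whereas the nearest genes Zbtb40 and Cdc42 had -0.72 ± 0.17 and -0.20 ± 0.13 and were not called. None of the 10 nearest neighbours of Fzd1 or of the 10 of Fzd10 was called.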
